A study of Mus musculus with 2 samples.

Results

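Type 1 conventional dendritic cells (cDC1) are the dendritic cells that carry the chemokine receptor XCR1 and the dead cell receptor CLEC9A. They take up material from dying cells and present it on MHC class I to CD8 T cells, which is called cross-presentation, and they arise under the transcription factors IRF8 and BATF3. In the lung they lie along the airways and carry the integrin CD103 (Itgae), and on maturation they gain Ccr7 and Fscn1 and leave for the draining lymph node.

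Here cDC1 were taken from living CD45+ leukocytes sorted from lungs of wild-type C57BL/6N mice and measured by single-cell RNA-seq, in which a tag on every captured transcript, the unique molecular identifier (UMI), lets it be counted a single time. The BLM library came from lungs 15 days after intratracheal administration of 50 µg of bleomycin, which damages the lung and is used to model pulmonary fibrosis, to mice of 10 to 16 weeks of age. The naive library came from lungs without treatment. Both pooled the cells of 3 mice with no map from cell to mouse, so each group was 1 sample, no test between groups was possible, and library preparation, sequencing and group cannot be told apart.

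The cDC1 were chosen by their own UMIs among cells with 15% or less of mitochondrial UMIs and at least 200 genes. A cell was kept with at least 1 UMI of Xcr1 and Clec9a together and at least 3 of Xcr1, Clec9a, Tlr3 and Cadm1 together. It could hold at most 1 UMI of Fscn1 and at most 1 of the Cd3 genes, and under 0.1% of its UMIs in C1qa, C1qb, C1qc and Ms4a7. This gave 146 cells of 8451, of which 56 were among 4526 BLM cells and 90 among 3925 naive cells. The limit on Fscn1 left out 0 BLM cells and 1 naive cell that met the rest of the rule. Mature dendritic cells with Fscn1 and Ccr7 seldom had a UMI of Xcr1 (1.27% of them in BLM, 0% in naive) or Clec9a (1.27% and 10%). The cells described here are thus mostly those before or outside that state. Because the rule used Xcr1, Clec9a, Tlr3, Cadm1 and Fscn1, their levels are given as a description.

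Of the cells that passed, cDC1 made up 1.24% in BLM (Clopper-Pearson 95% interval 0.936 to 1.60%) and 2.29% in naive (1.85 to 2.81%). These and all other intervals here cover counting error only. A share of a sorted population also moves with every other cell type in it, and in the same libraries type 2 conventional dendritic cells (cDC2, chosen by Cd209a, Flt3 and Clec10a) numbered 42 and 86, and dendritic cells with Fscn1 and Ccr7 numbered 79 and 20. The cDC1 were deeply covered cells, with a median of 8641 UMIs in BLM and 6974 in naive and sums of 555354 and 674251 UMIs. No cDC1 barcode occurred in both libraries.

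Naaa and Gcsam, which the rule did not use, were higher in the chosen cells than in the cell groups beside them, whereas Batf3 was not. Naaa, a lysosomal amidase, was at 1936 CPM (UMIs per 1000000 UMIs of the cDC1 of a library) in BLM and 1962 CPM in naive, against 480 and 402 CPM in cDC2 and 73.9 and 66.8 CPM in B cells. It had a UMI in 54 of 56 BLM and 85 of 90 naive cells. Wdfy4, which is needed for cross-presentation, was at 805 and 946 CPM, against 345 and 281 CPM in cDC2, 16.6 and 110 CPM in the dendritic cells with Fscn1 and 195 and 225 CPM in B cells. Irf8 was at 600 and 734 CPM, against 85.4 and 71.2 CPM in cDC2 and 172 and 245 CPM in B cells, but the dendritic cells with Fscn1 held 539 CPM of it in BLM and 179 CPM in naive. Batf3 was at 34.2 and 47.5 CPM, against 39.4 and 23.2 CPM in cDC2 and 98.1 and 62.0 CPM in the dendritic cells with Fscn1, so it did not set the chosen cells apart. Gcsam was at 124 and 126 CPM and had no UMI in cDC2 of either library. The cDC2 genes Cd209a and Clec10a were low, at 52.2 and 91.9 CPM and at 32.4 and 16.3 CPM, against 1324 and 2826 CPM and 358 and 256 CPM in cDC2. Because the cDC2 were chosen by these genes and Flt3, their high levels there follow from the choice. Fscn1, which the rule limited, stood at 3.60 and 2.97 CPM, and Ccr7 was at 77.4 and 53.4 CPM against 2871 and 2403 CPM in the Fscn1 cells. Ccr7 was one of the genes used to choose the Fscn1 cells, so its high level in them follows in part from the choice.

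**Figure D1:**
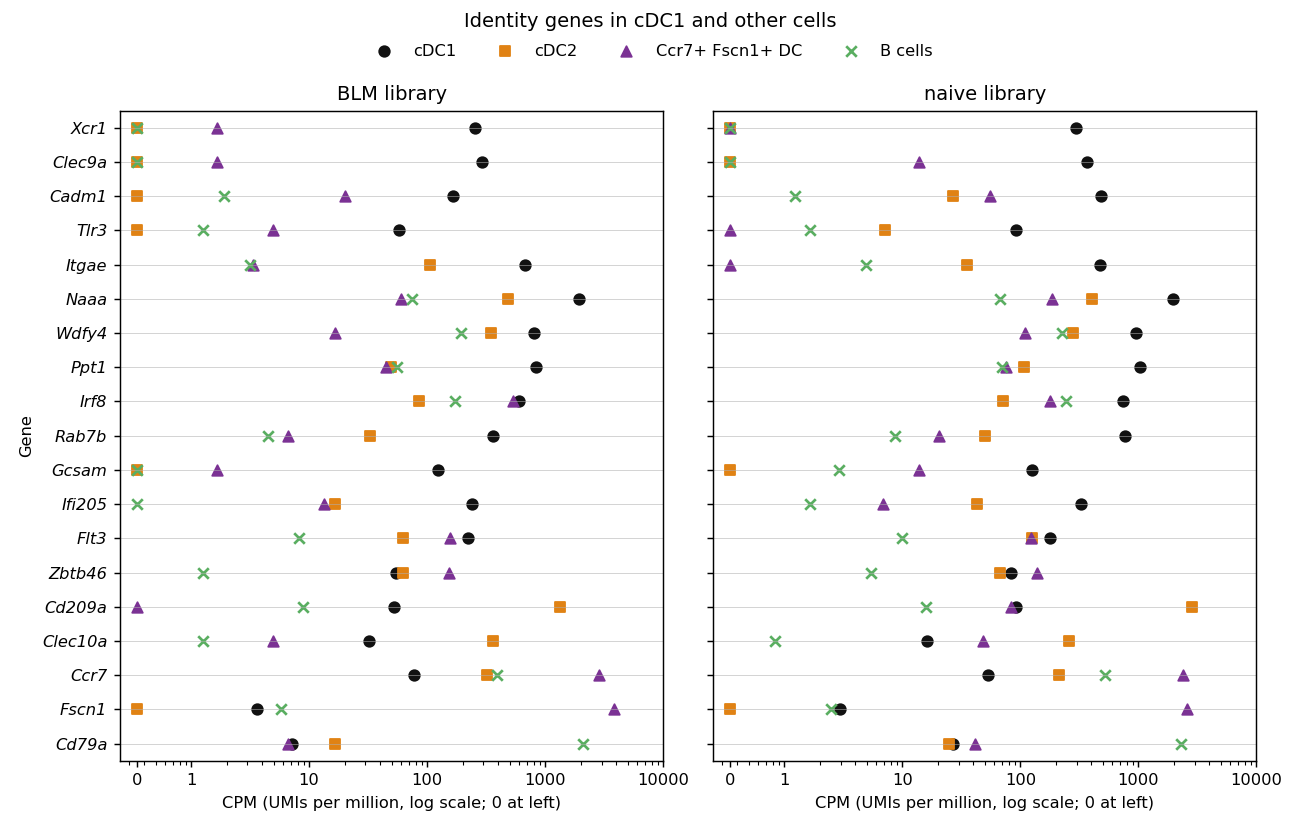
Levels of identity genes in cDC1, cDC2, dendritic cells with Ccr7 and Fscn1, and B cells of the BLM library (left) and the naive library (right), in CPM on a log scale with 0 at the left; each point is the sum over all cells of a group in 1 library. Naaa stood at 1936 and 1962 CPM in cDC1 and Cd209a at 1324 and 2826 CPM in cDC2, while Xcr1, Clec9a, Cadm1, Tlr3 and Fscn1 were used to choose the cDC1. Of the genes drawn, Cd209a, Flt3 and Clec10a were used to choose the cDC2, Fscn1 and Ccr7 the Fscn1 cells, and Cd79a the B cells.

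Some of the cells went against the label. Cells with 0.5% or more of their UMIs in 9 alveolar macrophage genes (Ear1, Ear2, Chil3, Marco, Fabp1, Krt79, Siglec5, Mrc1 and Lpl) numbered 2 in BLM and 2 in naive. The BLM pair held 49596 and 17244 UMIs, which was 8.93% and 3.11% of all UMIs of BLM cDC1, with 1485 and 1183 UMIs of Lyz2. The naive pair held 17411 and 9464 UMIs, with 74 and 230 of Lyz2. A further 2 BLM and 5 naive cells had no UMI of Naaa. Values are given for all 146 cells and, where it matters, for the 52 BLM and 83 naive cells left without these, a choice made after the data were seen. At the edge of the rule, the 6 BLM and 8 naive cells with exactly 3 UMIs of the gate genes had Naaa at 1097 and 914 CPM, and the 9 and 7 cells just outside, with 2 UMIs, at 532 and 479 CPM, of which 4 and 4 were rich in macrophage genes.

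In the comparison of BLM with naive cDC1, a gene was ranked with 20 or more UMIs over both libraries and a UMI in at least 10% of the cells of the higher library. It was called when the ratio passed 2-fold and its 95% interval left out 0 on the log2 scale. Of 5866 ranked genes, 257 were higher in BLM (4.38%) and 436 lower (7.43%), and the median log2 ratio was −0.0006. Without the cells in doubt 219 of 5448 ranked genes were higher and 420 lower, of which 167 and 346 were called with all cells too. Free RNA adds UMIs to every cell, and for 39 of the higher genes the BLM level and for 156 of the lower genes the naive level was at or under that in B cells of the same library. The B cell level also holds transcripts of the B cells themselves, so it does not measure free RNA alone.

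**Figure D2:**
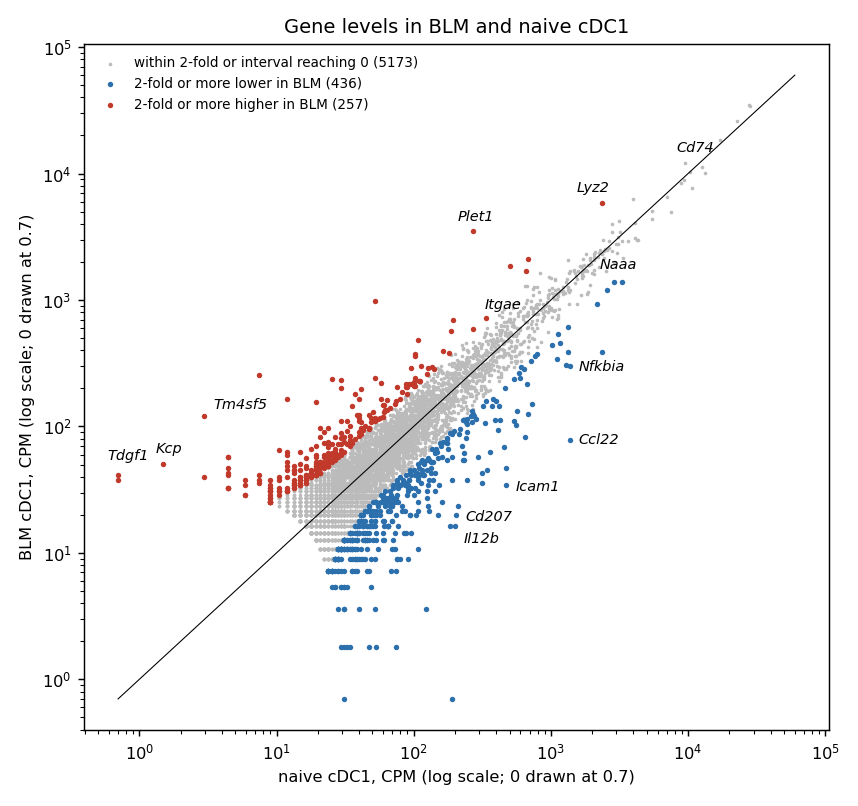
Level of each of the 5866 ranked genes in naive (x axis) and BLM (y axis) cDC1, in CPM on log scales, with the line of equal level; red points are the 257 genes higher and blue points the 436 genes lower in BLM by 2-fold or more. Plet1 and Ccl22 lie far from the line on opposite sides, and Naaa and Cd74 lie near it.

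Of the 12 genes that ranked highest, the one with the most UMIs was Plet1, which encodes a GPI-anchored surface protein. Plet1 had 1935 UMIs in BLM and 181 in naive cDC1, which is 3484 CPM (3331 to 3643) against 268 CPM (231 to 311) and a log2 ratio of 3.70 [3.48, 3.93]. It was seen in 52 of 56 cells of BLM and 47 of 90 of naive. In single BLM cells it ran from 0 over a median of 33.0 to 116 UMIs per 10000 UMIs, and in naive cells from 0 over 0.914 to 32.8, so the ranges overlapped. Cells with 20 or more Plet1 UMIs numbered 38 of 56 in BLM (67.9%) and 1 of 90 in naive (1.11%), and that naive cell was among those in doubt. Thinned to 2000 UMIs per cell, 84.1% of BLM and 27.9% of naive cells kept a UMI of Plet1. In B cells, which should lack it, Plet1 was at 156 CPM (BLM) and 209 CPM (naive), the opposite order, with a UMI in 8.49% and 18.5% of cells at median depths of 1828 and 2030 UMIs.

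Plet1 is also an alveolar macrophage gene. Without the cells in doubt its log2 ratio was 4.17. With all cells the alveolar macrophage list had 6 ranked members of 10, with 4 higher and 0 lower (4.38% and 7.43% over all ranked genes) and a median of 1.86. Without the cells in doubt it had 1 higher, 1 lower and a median of −0.39 among 5 ranked. Its summed level per cell ran from 0 over 0.370% to 3.09% of UMIs in BLM and from 0 over 0.0696% to 2.34% in naive, and Plet1 itself is in that sum. The macrophage-rich cells were chosen by 9 of the 10 genes of this list, so lower values of those genes without them follow from the choice, and the part of macrophage RNA in the Plet1 ratio was not tested.

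The summed level of Plet1 was higher in BLM cDC2 as well. There it was at 1022 CPM in BLM and 219 CPM in naive, a log2 ratio of 2.22 [1.92, 2.54], so the ratio in cDC1 was larger by 1.48 on the log2 scale (1.10 to 1.85). The naive level was close to the 209 CPM of naive B cells. A Plet1 UMI was seen in 42.9% of BLM and 40.7% of naive cDC2. Cells with 5 or more UMIs were 14 of 42 BLM and 2 of 86 naive cDC2, and with 20 or more 6 of 42 (14.3%) and 2 of 86. In the dendritic cells with Fscn1 it was at 64.8 and 434 CPM, the reverse order.

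The 4 genes whose upstream sequence is shown next were picked after their values were seen, as Plet1, which rose, and 3 that fell and are known targets of NF-kappa B (Ccl22, Icam1 and Nfkbia). The sequences are RefSeq's, build GRCm38.p6, each the 250 bases before the annotated start, 5′ to 3′ on the gene's own strand. Plet1 is at chr9:50494275-50494524 (plus strand), Ccl22 at chr8:94745434-94745683 (plus), Icam1 at chr9:21015690-21015939 (plus) and Nfkbia at chr12:55492648-55492897 (minus). Capitals mark matches to a 9-letter form of the kappa B motif, GGNANTTCC, on either strand.
Plet1: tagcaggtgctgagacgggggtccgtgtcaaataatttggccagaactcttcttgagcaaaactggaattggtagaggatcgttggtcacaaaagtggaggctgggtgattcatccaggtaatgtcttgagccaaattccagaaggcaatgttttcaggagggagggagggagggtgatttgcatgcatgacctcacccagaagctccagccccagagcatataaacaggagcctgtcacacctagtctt
Ccl22: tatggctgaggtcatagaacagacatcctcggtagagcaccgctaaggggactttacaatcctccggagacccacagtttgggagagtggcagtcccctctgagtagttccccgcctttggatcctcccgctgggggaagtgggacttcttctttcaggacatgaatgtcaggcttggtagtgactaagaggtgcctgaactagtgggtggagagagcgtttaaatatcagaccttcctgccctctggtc
Icam1: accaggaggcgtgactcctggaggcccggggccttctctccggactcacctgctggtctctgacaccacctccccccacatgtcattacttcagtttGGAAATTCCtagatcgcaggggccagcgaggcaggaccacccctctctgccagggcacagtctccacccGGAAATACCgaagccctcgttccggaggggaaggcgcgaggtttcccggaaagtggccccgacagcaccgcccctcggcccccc
Nfkbia: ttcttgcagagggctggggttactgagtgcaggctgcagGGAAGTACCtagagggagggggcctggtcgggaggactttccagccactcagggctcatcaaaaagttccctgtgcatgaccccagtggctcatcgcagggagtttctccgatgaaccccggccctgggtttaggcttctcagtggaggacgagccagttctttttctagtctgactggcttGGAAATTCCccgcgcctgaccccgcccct
Icam1 held 2 matches, beginning 153 and 84 bases before the start, and Nfkbia 2, at 211 and 29 bases. Ccl22 and Plet1 held none of this form in these bases. The form is narrow, and stretches that differ from it by a letter, such as ggactttcc in Nfkbia, were left unmarked. Over windows of 300 bases, with 50 after the start, 4.71% of 32851 windows held a match. By gene it was 346 of the 4665 ranked genes with a window (7.42%), 38 of 338 genes called lower (11.2%) and 11 of 197 called higher (5.58%). Windows were at hand for 338 of the 436 lower and 197 of the 257 higher genes. The shares were not tested against each other, and nothing is read from them about why genes fell or rose. A match is a stretch of letters and was not tested as a binding site.

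Other genes that rose had few UMIs or lay in part of the cells. Tm4sf5, a tetraspanin-like membrane protein, had 67 UMIs in 13 BLM cells and 2 UMIs in 2 naive cells (5.35 [3.44, 8.42]). The richest BLM cell held 26 of its 67 UMIs (38.8%) and the next richest held 25. Tdgf1, which encodes the Nodal co-receptor Cripto, had 23 UMIs in 13 BLM cells and none in naive, which puts BLM at least 9.31-fold higher when naive is set to a floor of 3 UMIs, and no UMI in B cells or cDC2. Kcp, a secreted BMP modulator, had 28 UMIs in 12 BLM cells and 1 in naive (5.09 [2.49, 10.4]). All 3 calls held without the cells in doubt, with Tm4sf5 at 6.41 and Kcp at 5.17. Tm4sf5 was also present in the dendritic cells with Fscn1, at 209 CPM in BLM and 165 CPM in naive.

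Further called genes had smaller ratios. Csf2rb, the shared signalling subunit of the receptors for GM-CSF, IL-3 and IL-5, had a UMI in 55 of 56 BLM and 83 of 90 naive cells and rose from 654 to 1689 CPM (1.37 [1.20, 1.54]), more than in cDC2 (0.47) by 0.89 (0.63 to 1.16). The transcription factor Nfil3, which acts upstream of Zeb2 in cDC1 development, rose from 89.0 to 205 CPM (1.21 [0.74, 1.68]). The glucose transporter Slc2a1 had 27 UMIs in 19 BLM cells and 8 in 6 naive cells (2.03 [0.86, 3.38]). Uck2 (2.28), the receptor Gpr55 (2.03) and the guanine deaminase Gda (1.93), chosen after their values were seen, rose with and without the cells in doubt. Mgl2 rose from 113 to 301 CPM (1.42), with 48.7% of its naive UMIs in 1 cell.

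For other genes that ranked high, the share of UMIs in the richest cell, the B cell level or the value without the cells in doubt is given. Spp1, the matrix protein osteopontin, rose from 51.9 to 989 CPM (4.25), with 60.7% of its BLM UMIs in 1 cell. Without the cells in doubt its log2 ratio was 1.17, on 56 UMIs in BLM and 32 in naive. B cells held Spp1 at 240 CPM in BLM and 24.1 CPM in naive, a log2 ratio of 3.32. Of the cytokine Osm, 71.6% of 141 BLM UMIs lay in 1 cell, B cells held it at 190 CPM in BLM and 64.3 CPM in naive, and its log2 ratio was 3.45 without the cells in doubt. Cd63 (3.79) had 63.7% of its BLM UMIs in 1 cell. It kept its call at 2.37 without the cells in doubt, on 16 UMIs in BLM and 4 in naive. B cells held Cd63 at 102 CPM in BLM and 22.4 CPM in naive, a log2 ratio of 2.19. Cxcl2 (2.97, and 3.02 without the cells in doubt) had a UMI in 30 of 56 BLM cells, with 55.8% of the UMIs in 1 cell, and stood at 232 CPM in BLM cDC1 and 385 CPM in BLM B cells. Arg1 had 21 UMIs in 12 of 56 BLM cells (21.4%, against 7.15% of BLM B cells) and none in naive, and at 37.8 CPM was under the 55.5 CPM of BLM B cells. Hmox1 (3.24, and −1.05 without the cells in doubt), Clec4n (3.01 and 0.37) and Fabp5 (2.75 and 0.37) lost their call without those cells.

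Ccl22, the chemokine that draws CCR4-bearing T cells including regulatory T cells, was among the 12 genes that ranked lowest. It had 43 UMIs in 13 of 56 BLM cells and 923 UMIs in 49 of 90 naive cells, 77.4 CPM (56.0 to 104) against 1369 CPM (1282 to 1460), a log2 ratio of −4.14 [−4.62, −3.70]. In single cells it ran from 0 over a median of 0 to 27.4 UMIs per 10000 in BLM and from 0 over 1.77 to 130 in naive, so the ranges overlapped. Cells with 5 or more UMIs of Ccl22 were 2 of 56 (3.57%) in BLM and 41 of 90 (45.6%) in naive. B cells held it at 8.92 and 14.5 CPM, with a UMI in 1.83% and 3.97% of them. Among cDC2 the level was 365 CPM in BLM and 484 CPM in naive (−0.41 [−0.74, −0.09]), a difference between the cell types of −3.72 (−4.26 to −3.18). In the dendritic cells with Fscn1, for which Ccl22 was one of the genes used to choose them, it was at 4335 and 2878 CPM.

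**Figure D3:**
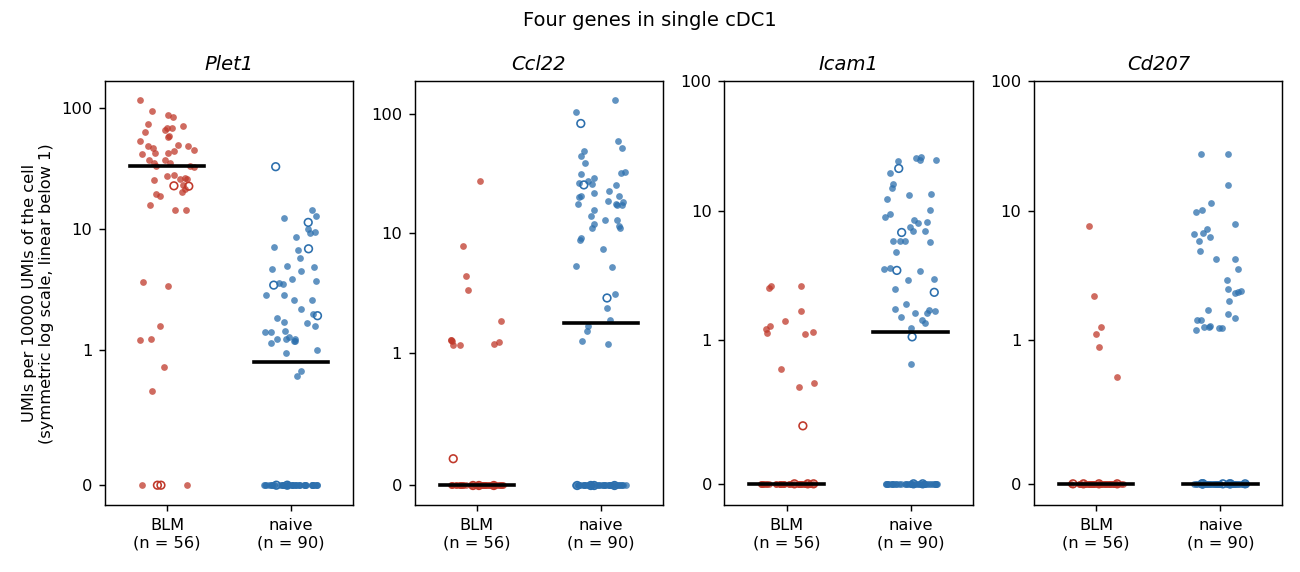
UMIs of Plet1, Ccl22, Icam1 and Cd207 per 10000 UMIs in each of the 56 BLM (red) and 90 naive (blue) cDC1, on a symmetric log scale, with the median as a bar and the cells in doubt as open circles. The medians of Plet1 were 33.0 in BLM and 0.914 in naive, and those of Ccl22 were 0 and 1.77.

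The naive cells with much Ccl22 also held other genes of an activated state. All 11 naive cells with a UMI of Il12b, a subunit of IL-12 and IL-23, and all 24 with 5 or more UMIs of Ccl17, the other CCR4 ligand, were among the 41 with 5 or more UMIs of Ccl22, as were 21 of the 27 with a UMI of Tnf. In BLM, 7 cells held 5 or more UMIs of Ccl17 and 1 of them 5 or more of Ccl22. The sum of Ccl17 differed little, at 832 CPM in BLM and 961 CPM in naive (−0.21 [−0.38, −0.03]), whereas in cDC2 it was at 4565 and 561 CPM (3.02). The richest BLM cell held 28.4% of the Ccl17 UMIs. Plet1 at 5 or more UMIs was seen together with Ccl22 at 5 or more in 2 BLM and 7 naive cells.

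Of 17 listed cytokine genes 7 were ranked, 5 of them lower in BLM and 0 higher (against 7.43% lower and 4.38% higher over all ranked genes), with a median log2 ratio of −1.65 (against −0.0006 over all ranked genes), and 4 were lower without the cells in doubt. Il12b had 9 UMIs in 3 BLM cells and 135 in 11 naive cells (−3.63 [−4.79, −2.66]). Tnf had 9 UMIs in 1 BLM cell and 125 UMIs in 27 naive cells (−3.52 [−4.68, −2.55]). Ebi3, the shared subunit of IL-27 and IL-35, fell from 128 to 23.4 CPM (−2.45) and Tgfb1 from 19 UMIs to 5 (−1.65 [−3.42, −0.18]), and naive B cells held Tgfb1 at 34.4 CPM, above the 28.2 CPM of naive cDC1. Il1b fell from 2892 to 1379 CPM (−1.07), which was −0.99 and past no threshold without the cells in doubt. Il15 had 3 and 9 UMIs and was too low to rank, and Il12a had no UMI. In cDC2 the 7 ranked members had a median of 0.02.

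Among 17 ligands that stimulate or restrain T cells, 12 were ranked, 5 lower and 0 higher (7.43% and 4.38% over all ranked genes), with a median of −0.83. Tnfsf9 (4-1BB ligand) had 20 UMIs in 4 BLM cells and 214 UMIs in 33 naive cells (−3.14 [−3.88, −2.48]). Icosl fell from 231 to 54.0 CPM (−2.10), the inhibitory ligand Cd200 from 26 UMIs to 5 (−2.10), and Cd40 from 126 to 30.6 CPM (−2.04 [−2.89, −1.28]). Cd83 fell from 2572 to 1194 CPM (−1.11, and −0.96 without the cells in doubt). Cd86 was at 409 and 442 CPM (−0.11 [−0.37, 0.14]), Cd80 at 59.4 and 104 CPM (−0.81 [−1.45, −0.19]) and Cd274 (PD-L1) at 43.2 and 65.3 CPM (−0.59 [−1.38, 0.15]), none past 2-fold. In cDC2 the same 12 genes had a median of −0.39, with 1 lower and 1 higher, Cd274 at 1.83 [1.13, 2.56]. There Cd86 was at 0.77 and Cd80 at 0.71. B cells held Cd274 at 129 CPM in BLM and 88.7 CPM in naive, above cDC1 of either library.

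The maturation list, made of genes that rise when dendritic cells mature, had 19 ranked members of 24, with 11 lower, 1 higher (7.43% and 4.38% over all ranked genes) and a median of −1.20. Of its members, Cd40 and Cd200 are also on the list of T cell ligands, Ccl22 on the chemokine list, Ccr7 on the receptor list and Tbc1d4 on the identity list, so the counts are not separate. Marcksl1 fell from 475 to 46.8 CPM (−3.34 [−3.98, −2.76]), Tbc1d4 from 681 to 126 CPM (−2.43) and Traf1 from 411 to 93.6 CPM (−2.13). Birc3 (−1.65) and the NF-kappa B subunits Relb (−1.43) and Nfkb2 (−1.20) were lower as well, while Nfkb1 was at −0.19 [−0.62, 0.24]. Arl5c had 1 UMI in BLM and 50 in naive (−5.36 [−10.70, −2.82]), but its naive level of 74.2 CPM was close to the 62.2 CPM of B cells. Ccr7 was at 0.54 [−0.14, 1.22] with 51.2% of its BLM UMIs in 1 cell, and without the cells in doubt it was higher at 1.79 [0.94, 2.72], when 2 members of the list were higher. B cells held Ccr7 at 390 and 525 CPM, above cDC1 of either library. Cells with 2 or more Ccr7 UMIs were 3 of 56 and 5 of 90. The median of the same 19 genes was −0.08 in cDC2 and −0.03 in B cells.

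**Figure D4:**
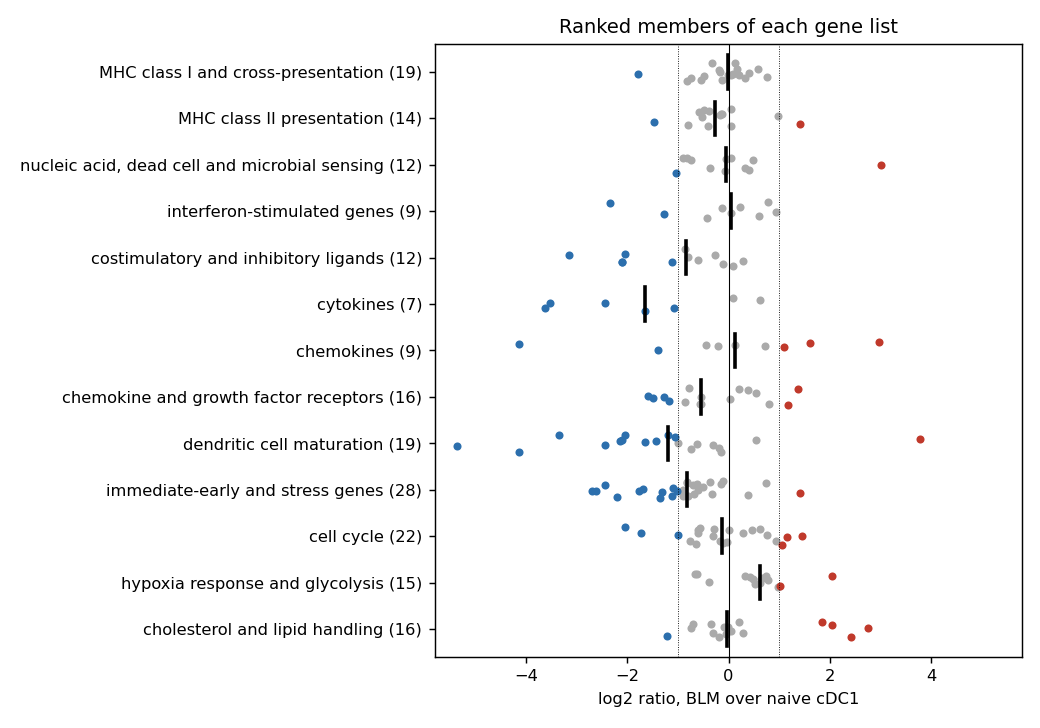
Log2 ratio of BLM over naive cDC1 for each ranked member of 13 gene lists, with the number ranked in brackets, the median as a bar and dotted lines at 2-fold; blue members were called lower and red members higher. The cytokine, maturation and costimulation lists have medians of −1.65, −1.20 and −0.83, and the MHC class I list −0.01.

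Icam1, the adhesion molecule that binds LFA-1 on T cells, fell from 473 CPM (423 to 528) to 34.2 CPM (20.6 to 53.4), a log2 ratio of −3.79 [−4.54, −3.12]. It was seen in 14 of 56 BLM and 47 of 90 naive cells. The fall in cDC2 was of like size, at −3.47 [−4.30, −2.75], with a difference of −0.32 (−1.29 to 0.65). B cells held Icam1 at 41.4 and 42.3 CPM, with a UMI in 7.15% and 9.03% of them, so the BLM level in cDC1 was not above that of B cells. Whether those B cell UMIs were free RNA was not tested. Cd207 (langerin), a C-type lectin carried by part of the airway cDC1, was seen in 6 of 56 cells of BLM (10.7%, 4.03 to 21.9%) and 33 of 90 naive cells (36.7%, 26.8 to 47.5%), with 11 and 138 UMIs (−3.37 [−4.40, −2.49]) and no UMI in B cells. Thinned to 2000 UMIs, 3.65% and 20.8% of cells kept a UMI of Cd207. All 6 BLM cells with Cd207 also held 5 or more UMIs of Plet1, as did 8 of the 33 naive cells, and over all cDC1 that many Plet1 UMIs were in 45 of 56 BLM and 12 of 90 naive cells.

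Immediate-early and stress genes were lower in 11 of 28 ranked members and higher in 1 (7.43% and 4.38% over all ranked genes), with a median of −0.82. The higher member, Ier3 (1.42), was past no threshold without the cells in doubt (0.78). Fosb fell from 2367 to 385 CPM (−2.62 [−2.83, −2.41]), Jun from 246 to 37.8 CPM (−2.70 [−3.43, −2.04]), the phosphatase Dusp2 from 555 to 103 CPM (−2.43) and Egr1 from 174 to 54.0 CPM (−1.68). The NF-kappa B inhibitor Nfkbia fell from 1379 to 301 CPM (−2.20 [−2.44, −1.96]) and was seen in 45 of 56 BLM and 77 of 90 naive cells. Nfkbiz, which encodes the nuclear I-kappa B zeta, fell from 653 to 82.8 CPM (−2.98 [−3.45, −2.54]). Fos (−0.33), Junb (−0.62) and Nr4a3 (−0.61) moved by less than 2-fold, and Nr4a2 was at 0.73 [0.36, 1.10]. These genes also respond to tissue handling, and in the same libraries the list had a median of −0.46 in cDC2, with 5 lower and 1 higher, and of 0.16 in B cells, with 0 lower and 5 higher. Nfkbiz was at −0.05 and Nfkbia at −0.36 in cDC2. The part of handling in these ratios was not tested.

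**Figure D5:**
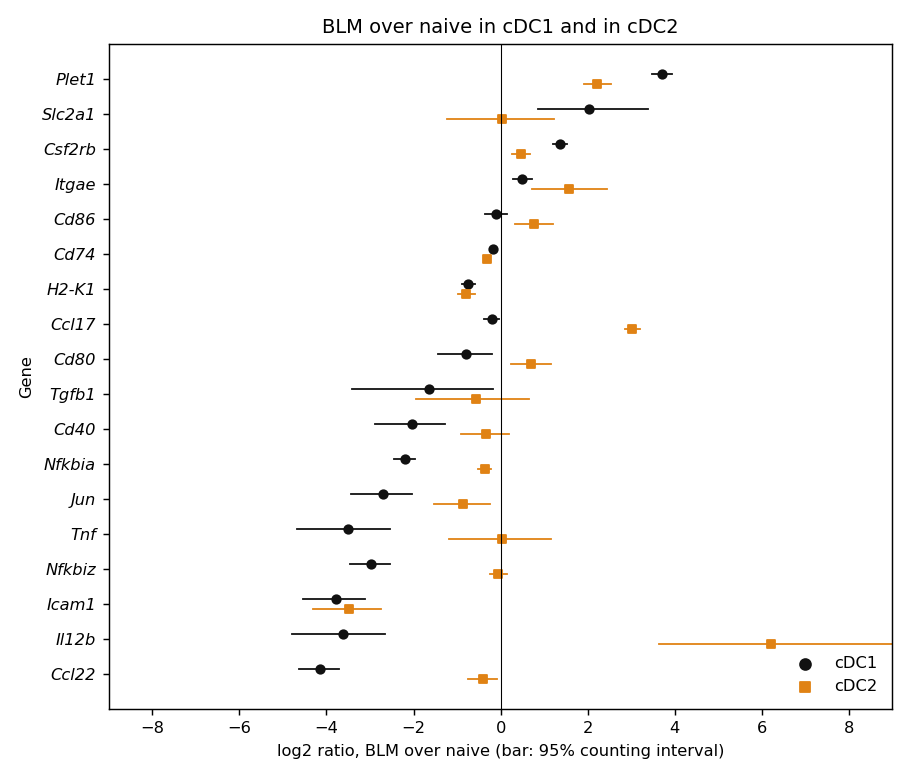
Log2 ratio of BLM over naive for 18 genes in cDC1 (black circles) and cDC2 (orange squares), with 95% counting intervals as bars. Icam1 fell in both cell types, at −3.79 and −3.47, whereas Ccl22 stood at −4.14 in cDC1 and −0.41 in cDC2 and the upper bound for Il12b in cDC2, which had 1 naive UMI, runs past the axis.

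On the MHC class I and cross-presentation list 19 of 20 members were ranked, with 1 lower, 0 higher and a median of −0.01, beside 7.43% lower and 4.38% higher over all ranked genes, from which nothing is read about the list. Tap1 was at 131 and 114 CPM (0.20 [−0.28, 0.68]), the immunoproteasome subunit Psmb8 at 998 and 666 CPM (0.58), calreticulin (Calr) at 1271 and 753 CPM (0.75), H2-K1 at 933 and 1559 CPM (−0.74) and B2m at 1815 and 2262 CPM (−0.32). The called member was H2-Q7 (−1.79), whose reads can be shared with its near-identical neighbours. Of the MHC class II genes 14 were ranked, 1 lower, 1 higher and a median of −0.27, with Cd74 at 11297 and 12663 CPM (−0.16), H2-Ab1 at −0.38 and the DO subunit H2-Oa lower at −1.47. B cells held H2-Oa at 87.3 CPM in BLM and 100 CPM in naive, above the 25.2 and 69.7 CPM of cDC1. The higher member, the protease Lgmn (1.41), was at 0.44 without the cells in doubt.

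Irf8 was at −0.29 [−0.50, −0.09], Batf3, seen in 14 and 25 cells, at −0.47 [−1.37, 0.39], Flt3 at 0.30 [−0.07, 0.68] and Itgae at 0.50 [0.28, 0.72], with 672 CPM in BLM and 475 CPM in naive. Of the 26 ranked identity genes outside the gate, 2 were higher and 3 lower (4.38% and 7.43% over all ranked genes), with a median of −0.13. The higher ones were Plet1 and Nfil3, and the lower ones Cd207, Tbc1d4 and the lysosomal GTPase Rab7b (−1.08). The gate genes, as a description, stood at −0.23 for Xcr1, −0.33 for Clec9a, −0.67 for Tlr3 and −1.55 for Cadm1, and a cell held a median of 7 gate UMIs in BLM and 9 in naive. Of the sensing genes 12 were ranked, with 1 higher, 1 lower (4.38% and 7.43% over all ranked genes) and a median of −0.06. The higher one, Clec4n, and the lower one, the DNA sensor cGAS (Mb21d1, −1.04), lost their call without the cells in doubt. Tmem173 (STING) was then higher at 1.30 and Cd209a, with 0 and 25 UMIs, was lower.

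Of 9 ranked interferon-stimulated genes 2 were lower and 0 higher (7.43% and 4.38% over all ranked genes), and the median was 0.05. These 2 were Irf1 (−2.34 [−3.88, −1.09]) and Ifi27l2a (−1.28), both at or under their B cell level in naive cells. Without the cells in doubt 3 were higher, Isg15 (1.92), Irf7 (1.30) and Bst2, and 44.8% of the naive Isg15 UMIs lay in 1 cell. Among chemokines other than Ccl22, Cxcl16 was at 474 and 642 CPM (−0.44), Cxcl9 had 10 and 15 UMIs, Cxcl10 had 6 and 19 UMIs (−1.38, a call that ended without the cells in doubt) and Ccl5 had 44 and 25 UMIs (1.10), with 63.6% of the BLM UMIs of Ccl5 in 1 cell. Ccl6 (1.62) was at −0.89 without the cells in doubt. Of 16 ranked chemokine and growth factor receptors 4 were lower and 2 higher (7.43% and 4.38% over all ranked genes), with a median of −0.54. Csf2rb was among the higher ones. The lower ones were Il2rg (−1.59), Cxcr4 (−1.49), the IL-10 receptor Il10ra (−1.28) and Ccr2, a chemokine receptor that fell from 590 to 263 CPM (−1.17 [−1.45, −0.89]). Naive B cells held Il2rg at 428 CPM and Cxcr4 at 523 CPM, above the 48.9 and 162 CPM of naive cDC1, and the call of Il2rg ended under 3 of 17 alternatives.

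The share of cycling cells differed by less than counting error. Cells with 3 or more UMIs of Mki67, Top2a, Birc5 and Cdk1 were 10 of 56 in BLM (17.9%, 8.91 to 30.4%) and 16 of 90 in naive (17.8%, 10.5 to 27.3%), with median depths of 12688 and 10455 UMIs. Mki67 fell from 190 to 57.6 CPM (−1.72 [−2.33, −1.15]) and Ccnb2 from 25 UMIs to 5 (−2.04), while the replication genes Mcm2 (1.45) and Mcm3 (1.15) rose, and Top2a was at −0.61 [−1.04, −0.18]. The calls of Mcm2 and Mcm3 ended under 2 and 3 of 17 alternatives, among them leaving out the cycling cells. The cell cycle list had 22 ranked members, with 3 higher, 3 lower (4.38% and 7.43% over all ranked genes) and a median of −0.13.

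Hypoxia and glycolysis genes had a median of 0.61 over 15 ranked members, with 2 higher and 0 lower (4.38% and 7.43% over all ranked genes). The higher ones were Slc2a1 and Hilpda (1.02, and −0.40 without the cells in doubt). Gapdh (0.65), Pgk1 (0.73), Ldha (0.61) and Tpi1 (0.78) moved the same way by less than 2-fold, while Hk2 (−0.66 [−1.29, −0.05]), Ero1l (−0.63) and P4ha1 (−0.38) were on the other side of 0. The same genes had a median of 0.50 in cDC2 and 0.14 in B cells. Of 16 ranked lipid genes 4 were higher and 1 lower (4.38% and 7.43% over all ranked genes), with a median of −0.03. Scd2, a stearoyl-CoA desaturase, rose from 23.7 to 97.2 CPM (2.03, and 2.62 without the cells in doubt) and Apoe from 8 UMIs to 35 (2.41), below its level of 277 CPM in BLM B cells. Fabp5 and Lpl (1.84, and −0.39) lost their call without the cells in doubt, as did the lower member Insig1.

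Of 9 ranked genes of arginine metabolism and alternative activation 3 were higher and 0 lower (4.38% and 7.43% over all ranked genes). No ranked member was called higher without the cells in doubt. Chil3 was then lower at −1.08 and Arg1, with 10 UMIs against 0, was too low to rank. Of the markers of other cells, C1q and scar-associated macrophage genes had 6 ranked members, with 5 higher and 0 lower (4.38% and 7.43% over all ranked genes). Their median was 2.20. Without the cells in doubt 3 were higher and the median was 0.41. The low end of the ranking held traces of other cells too. Scgb1a1, a club cell gene, had 0 UMIs in BLM and 128 in naive, 90.6% of them in 1 cell. Of 83 naive Ly6c2 UMIs 67.5% lay in 1 cell, and B cells held Ly6c2 at 327 CPM. Igkc (−2.93) and Ighm (−1.72) were far below their B cell levels in both libraries, and Siglech (−2.21) was at −0.63 without the cells in doubt. No T and NK cell gene was ranked.

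The most variable genes, by variance over mean of scaled UMIs, were Lyz2, Chil3, Ccl6, Ccl17, Fth1, Hmox1, Spp1 and Cd209a in BLM and Scgb1a1, Ly6c2, Ccl17, Il1b, Siglech, Ccl22, Malat1 and Il12b in naive. In BLM the richest cell held 45.8% to 90.2% of the UMIs of Lyz2, Chil3, Ccl6, Hmox1, Spp1 and Cd209a. In naive cells Il1b, with 7.85% in the richest cell, Ccl22 (14.2%), Ccl17 (13.6%) and Il12b (25.2%) were spread over more cells.

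The ligands that other cells send to cDC1 were given for the cells outside the cDC1. Xcl1, which binds XCR1, was at 12.8 CPM in BLM and 17.2 CPM in naive (−0.42 [−0.67, −0.18]), with a UMI in 86 and 138 cells. Flt3l was at 14.7 and 15.6 CPM (−0.09) and Csf2, which encodes GM-CSF, at 10.2 and 9.50 CPM (0.10 [−0.20, 0.40]). Cd40lg was at 4.50 and 3.99 CPM.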

How the data were processed

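For each library the authors deposited UMI counts as 1 table, whole numbers with cells in rows, made per the file headers by the BD WTA Rhapsody Analysis Pipeline version 1.8 on GRCm38 with GENCODE vM19. They filtered cells in SeqGeq after that step, with thresholds not used here. Genes missing from a table were set to 0 in it (22632 and 22388 genes, 24785 in all). The libraries shared 22 barcodes, none of them cDC1.

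Counts were summed over the cells of a group and library and given as CPM with exact Poisson intervals. Log2 ratios have exact conditional 95% intervals and shares Clopper-Pearson intervals (scipy 1.17.1, Python 3.11.15). The call rule was tried on simulated Poisson counts with known folds, which have the spread that the intervals assume. It was not tried on sums set by single rich cells. A count of 0 was set to a floor of 3 UMIs for a fold. With 1 library per group no test was run. The members, gene lists and thresholds were chosen with earlier results of these data known. Named genes were a fixed list, the 12 highest and 12 lowest ranked by the interval end nearer 0, the 2 highest and 2 lowest of each list, and the 8 most variable genes per library. Doublets were scored with Scrublet in scanpy 1.11.5, which by its own threshold called 4 BLM barcodes (0.0884%), too few to have worked, and 61 naive barcodes (1.55%). No cell was removed on that score. Leaving out the top 3% was an alternative, and it took 1 cDC1. Promoter windows and coordinates are from RefSeq, GRCm38.p6. Antisense and overlapping genes were not separated. A result on a withheld gene is not reported here.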

Additional observations from a re-analysis of the deposited data

Results flagged for a closer look

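For 5 genes the log2 ratio of BLM over naive moved one way past 2-fold in cDC1 and the other way in cDC2. With 1 library per group the differences between the cell types (cDC1 minus cDC2) were not tested. They were −9.19 for Il12b (−3.63 in cDC1 and 6.21 in cDC2, where naive had 1 UMI), −3.72 for Cxcl10 (−1.38 and 2.43), −3.48 for Epcam (−1.18 in cDC1, and 2.36 in cDC2 on 25 and 9 UMIs), 6.05 for Hmox1 (3.24 and −2.89) and 3.75 for Chil3 (1.88 and −1.88). The calls in cDC1 rested on 6 and 19 UMIs for Cxcl10, and that call ended under 6 of 17 alternatives, among them leaving out the cells in doubt, while that of Epcam ended under 3. In cDC2 a UMI of Cxcl10 was seen in 11.9% of BLM and 19.8% of naive cells, the reverse of the order of its CPM, so no order is read for it there. The ratios of Hmox1 and Chil3 in cDC1 were positive through the cells in doubt (−1.05 and −1.08 without them).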

How the results depend on the processing

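No paired analysis was possible because each group was 1 library. Under 17 alternatives per gene, none was seen to end the ratio and interval of the call for 30 of 66 called named genes, ranked or not. Among them were Plet1, Tm4sf5, Tdgf1, Kcp, Csf2rb, Ccl22, Il12b, Tnf, Icam1, Cd207, Nfkbiz, Cd40 and Jun. Values with under 10 UMIs were not given. For genes with few UMIs, such as Tdgf1 and Kcp, the thinned alternative was therefore not shown to keep the call. The calls moved to 107 higher and 148 lower when each cell was thinned to 2000 UMIs, to 126 and 237 with 50 or more UMIs asked of a gene, both with fewer UMIs or genes by construction, and to 165 higher without the richest cell of each gene. The cDC1 share of BLM cells was 0.486% with no UMI of C1q or Ms4a7 allowed, and that of naive cells 1.40% with Xcr1 and Clec9a both asked for.

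Among called named genes the sign of the log2 ratio turned for these, and apart from leaving cells out the cause was not tested. With a gate sum of 5 or more it was −0.91 for Hmox1, −0.54 for Clec4n, −0.0838 for Fabp5, −1.18 for Ccl6, −0.63 for Hilpda, −1.56 for Chil3, −0.75 for Lyz2 and −0.54 for Sirpa. With no C1q or Ms4a7 UMI it was −0.66 for Hmox1, −0.24 for Fabp5, 0.12 for Mb21d1, −1.13 for Ccl6, −0.70 for Hilpda, −1.21 for Chil3, −1.18 for Lyz2 and −1.24 for Trem1. Hmox1 was at −0.14 with Xcr1 and Clec9a both seen and at −0.022 without cells of other lineages. Without the macrophage-rich cells, an alternative added after seeing the data, it was −1.01 for Hmox1, −0.87 for Ccl6, −0.55 for Hilpda, −1.12 for Chil3, −0.77 for Lyz2 and −0.030 for Trem1. Without all cells in doubt, added likewise, it was −1.05 for Hmox1, −0.89 for Ccl6, −0.40 for Hilpda, −1.08 for Chil3 and −0.79 for Lyz2. Without cycling cells Ccl5 was at −0.16 and Sirpa at −0.27, without the richest cell Ccl5 was at −0.11 and Hilpda at −0.00189, and thinned H2-Oa was at 0.032. Gene ratios with under 10 UMIs under an alternative (31 values) were not given.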
